A study of Mus musculus with 5 samples.

Results

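Committed oligodendrocyte precursors are cells of the myelin-forming lineage that have left the pool of dividing precursors and are not yet mature myelinating cells. In single nuclei from the mouse dentate gyrus, a part of the hippocampus, they were chosen by a rule on raw counts of unique molecular identifiers (UMIs, each standing for 1 captured RNA molecule). A nucleus needed at least 500 UMIs with at most 5% of them mitochondrial, and a UMI of at least 3 of the 5 markers Enpp6, Gpr17, Neu4, Bmp4 and Bcas1, with Enpp6 or Gpr17 among them. It could hold no UMI of Pdgfra or Cspg4, the defining genes of dividing precursors, and at most 1 UMI summed over Slc17a7, Gad2 and Aqp4, which mark excitatory neurons, inhibitory neurons and astrocytes. The rule found 92 nuclei among 32199 kept barcodes of 3 nuclear libraries, in a series of 95918 deposited barcodes and 5 libraries. The 5 markers and the exclusion genes chose the nuclei, so their levels are given as a description only, and so is every comparison of these nuclei with other cell sets.

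The 3 libraries were prepared from nuclei of frozen tissue. WT-naive came from wild-type mice without treatment. WT-CFC came from wild-type mice 14 days after contextual fear conditioning, in which a mouse learns to link a place with a foot shock. The third library, labelled KO-CFC, came from mice trained the same way and titled as a knockout of Csf2rb2, a receptor chain for the cytokine interleukin-3, although its genotype field names Csf2rb3. Each group was 10 mice and 1 library. The strain, the sex and age of the mice, and the allele and the cells in which it acts are not given in the sources used here.

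Deposited depth ranged from 38045642 UMIs (KO-CFC) to 68519389 (WT-CFC), and the median kept barcode held between 2270 and 4119 UMIs. The library labelled KO-CFC stood apart from the others. Over all its kept barcodes Csf2rb2 was at 9.65 CPM (counts per gene scaled to a common total of counts), against 14.4 in WT-naive and 17.7 in WT-CFC. Whether the deleted stretch lies within the counted 3′ end is not given, so this does not check the label. Xist, an RNA of female cells, was at 642 CPM in KO-CFC and at 2.95 and 1.82 CPM in WT-naive and WT-CFC, while the Y-linked Eif2s3y was at 15.9 CPM in KO-CFC and at 102 and 106 CPM in the other two. Igkc, an antibody chain of B cells, was at 460 CPM there and at or near 0 in the wild-type libraries. Genotype, the sex of the mice and the handling of 1 library cannot be told apart in any difference that involves KO-CFC. Pairs of libraries shared 25 to 30 barcodes, and none belonged to a committed precursor nucleus.

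With 1 library per group, no difference below has a replicate check and no p-value is given. Intervals are 95% intervals for counting error only, and they treat UMIs as independent although UMIs of 1 nucleus share that nucleus.

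As background, oligodendrocyte precursors divide throughout life and carry the growth factor receptor encoded by Pdgfra. On commitment they lose it, pass through a short stage that shows the receptor Gpr17, a brake on maturation, and the phosphodiesterase Enpp6, and then switch on major myelin genes such as Mbp. Myelin formation by new oligodendrocytes in the adult brain has been linked to learning, and the committed stage is the one through which each new oligodendrocyte passes.

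The members carried the markers at levels far above those of neurons in the same libraries. Enpp6, which splits choline-containing phospholipid products, had 94, 76 and 34 UMIs in WT-naive, WT-CFC and KO-CFC, or 757, 773 and 328 CPM. Gpr17 was at 708, 753 and 617 CPM in that order of libraries. Enpp6 was lowest in KO-CFC, while the counting intervals of Gpr17 overlapped. Neu4, a sialidase, was at 403, 275 and 395 CPM. Bmp4, a ligand of the bone morphogenetic protein family, was at 185, 336 and 270 CPM, from 23, 33 and 28 UMIs. Bcas1, an early protein of myelinating processes, was at 2753, 3023 and 1890 CPM. Enpp6, Gpr17 and Bcas1 were highest in WT-CFC and lowest in KO-CFC, and Neu4 and Bmp4 were not in that order.

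Neurons are expected to hold little RNA of these genes. Whether a UMI of them in a neuron came from free RNA in the droplets was not tested. Among nuclei with at least 3 UMIs of Slc17a7, whose median depth was 11020.5, 12320 and 9989.5 UMIs, 1.17%, 1.32% and 1.69% had an Enpp6 UMI. Among members, at median depths of 3101, 3614.5 and 2165 UMIs, the shares were 86.5%, 92.3% and 55.2%. For Gpr17 the neuron shares were 1.69%, 2.04% and 2.62%, against 78.4%, 92.3% and 89.7% of members. The rule required Enpp6 or Gpr17 in every member, so the high shares in members follow from the choice of nuclei. For Bcas1 the neuron shares were 3.83%, 7.03% and 6.92%, against 97.3%, 100% and 96.6% of members.

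Exactly 3 markers were found in 41 members, 4 in 30 and all 5 in 21. Genes that the rule did not use can be set beside its threshold. A list of 25 other committed and premyelinating genes summed to 10554 CPM in the 41 nuclei with exactly 3 markers. In the 70 nuclei just outside the rule, with exactly 2 markers and all other conditions met, it summed to 6114 CPM. The kinase Fyn was at 1380 CPM just inside and 358 CPM just outside. For Mbp, myelin basic protein, the order was the other way, with 2440 CPM inside and 3143 CPM outside.

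The members were a small share of each library. In WT-naive 37 of 10756 kept barcodes met the rule, or 0.344% (exact Clopper-Pearson interval 0.242 to 0.474%). In WT-CFC 26 of 13063 did, or 0.199% (0.130 to 0.291%). In KO-CFC 29 of 8380 did, or 0.346% (0.232 to 0.497%). The share in WT-CFC was 0.579 times that in WT-naive (0.336 to 0.982), and the share in KO-CFC was 1.74 times that in WT-CFC (0.988 to 3.07) and 1.01 times that in WT-naive (0.597 to 1.68).

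The share of members varied with the depth of the barcodes. WT-CFC had 4759 barcodes between 500 and 1000 UMIs and no member among them, which allows a share of up to 0.0630%, while WT-naive had 2 members among 1749 such barcodes. Between 1000 and 2000 UMIs the shares were 0.520% in WT-naive (9 of 1732, interval 0.238 to 0.984%), 0.143% in WT-CFC (2 of 1402, 0.0173 to 0.514%) and 0.709% in KO-CFC (12 of 1692, 0.367 to 1.24%), so WT-CFC was lowest there, with intervals that overlapped. Between 2000 and 4000 UMIs the shares of WT-naive, WT-CFC and KO-CFC were 0.883%, 0.914% and 0.556%. When every barcode was thinned to 1000 UMIs before the rule was applied, 22 of 9007, 19 of 8304 and 14 of 6785 barcodes met it, or 0.244%, 0.229% and 0.206%. Thinning left out 1749, 4759 and 1595 shallower barcodes. The 3 thinned shares lay within each other's counting error, while in the bin of 1000 to 2000 UMIs the WT-CFC share lay below the intervals of the other libraries.

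**Figure D1:**
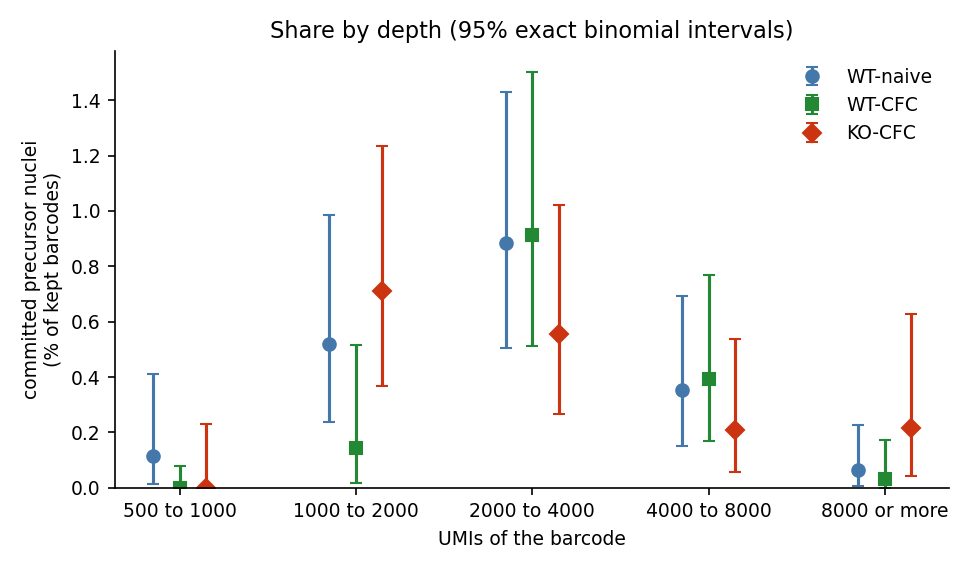
Share of kept barcodes that met the rule (y axis, %) in bins of UMIs per barcode (x axis), with exact 95% binomial intervals; circles are WT-naive, squares WT-CFC and diamonds KO-CFC. The highest share was 0.914%, in WT-CFC between 2000 and 4000 UMIs, and the intervals of the 3 libraries overlapped in every bin.

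Nuclei of the neighbouring stages were drawn by like rules for comparison. Oligodendrocyte precursor nuclei held a UMI of both Pdgfra and Cspg4 and none of Mog. Mature oligodendrocyte nuclei held at least 3 of the 6 genes Mog, Mag, Mobp, Aspa, Ermn and Opalin and none of Enpp6, Gpr17, Pdgfra or Cspg4. Of the nuclei in these 3 sets, the members made up 37 of 570 in WT-naive (6.49%), 26 of 818 in WT-CFC (3.18%) and 29 of 487 in KO-CFC (5.95%). Precursors were 31.9%, 26.5% and 14.0% and mature oligodendrocytes 61.6%, 70.3% and 80.1%. As a share of all kept barcodes, precursors were 1.69%, 1.66% and 0.811%, so precursors were lower in KO-CFC. The share of members under the main rule was near that of WT-naive, but this depended on the choice of nuclei. Without members holding 2 or more UMIs of microglia, lymphocyte, endothelial, mural or choroid plexus markers, 32, 21 and 10 members remained. The KO-CFC share was then 0.119%, the lowest of the 3. After thinning to 1000 UMIs it was 0.206%, also the lowest, with overlapping intervals.

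A pair of lineage lists was higher in members than in either stage. In the summed list of 25 committed and premyelinating genes, which holds none of the 5 markers, members were at 14476, 17882 and 8273 CPM in WT-naive, WT-CFC and KO-CFC. Precursors were at 2474, 3028 and 2092 CPM and mature oligodendrocytes at 1477, 1620 and 1366 CPM. The members were highest in each library. The 25 lineage transcription factors summed to 9701, 8926 and 6065 CPM in members, 6456, 7134 and 5388 CPM in precursors and 6058, 6265 and 4608 CPM in mature nuclei, so they too were highest in members but by less. Against precursors, 60 of 861 genes with at least 50 counts in each library were at least 2-fold higher in members in all 3 libraries (6.97%) and 77 were at least 2-fold lower (8.94%). Of the premyelinating list, 10 of the 13 tested genes were higher and none lower. Against mature nuclei, 150 of 3700 genes were higher in all 3 libraries (4.05%) and 193 lower (5.22%), with 12 of 13 tested premyelinating genes among the higher ones.

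Fyn, a kinase that oligodendrocytes need to extend and wrap their processes, was at 2319, 2432 and 1360 CPM in members. It was at 239, 317 and 139 CPM in precursors and 81.7, 110 and 87.6 CPM in mature nuclei. In each library the members were the peak. Tcf7l2, a transcription factor needed for differentiation, was at 958, 1221 and 357 CPM in members, 94.3, 115 and 119 CPM in precursors and 51.2, 60.8 and 29.7 CPM in mature nuclei. Tns3, an adaptor of cell-matrix contacts, was at 1594, 1628 and 588 CPM in members, 232, 327 and 173 CPM in precursors and 81.7, 98.8 and 81.0 CPM in mature nuclei. Both genes peaked in members in all 3 libraries, and both were lowest in KO-CFC among the members. Itpr2, a calcium release channel, was at 837, 1109 and 511 CPM in members, against 402, 502 and 263 CPM in precursors. The premyelinating RNA 9630013A20Rik was at 1481, 2076 and 906 CPM in members and at 20.9, 18.6 and 14.9 CPM in precursors.

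The myelin gene Mbp was present at high levels. It was at 3349, 3277 and 1388 CPM in members, 73.3, 86.0 and 84.3 CPM in precursors and 2262, 2363 and 1842 CPM in mature nuclei. Mbp in wild-type members thus lay above its mature level, and in KO-CFC members below it. Genes of late myelin were scarce. Mal, a protein of compact myelin, had 9, 7 and 5 UMIs in members and log2 ratios to mature nuclei of −3.72, −4.41 and −4.30. Hapln2, a matrix link protein of nodes of Ranvier, had 0, 1 and 0 UMIs in members against 165, 344 and 155 in mature nuclei. Of the myelin list, 12 of 21 tested genes were at least 2-fold lower in members than in mature nuclei in all 3 libraries and 1 was higher.

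Further genes stood far above their level in precursors, and log2 ratios to precursors are given in the order WT-naive, WT-CFC and KO-CFC. St18, a zinc finger transcription factor, had ratios of 6.41, 5.404 and 3.50. Frmd4a, a scaffold of cell polarity, had ratios of 4.67, 5.26 and 3.45. Nfasc, the adhesion molecule neurofascin, had ratios of 3.98, 4.22 and 2.89. These 3 genes had their smallest ratio in KO-CFC. Tubb4a, a tubulin of oligodendrocytes, did not share that order, with ratios of 3.44, 3.26 and 3.51, and neither did the deacetylase Sirt2, with 2.82, 2.43 and 2.90.

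Most precursor genes were lower. Of 21 tested genes of the precursor list, 14 were at least 2-fold lower than in precursors in all 3 libraries and none was higher, with medians of −1.88, −1.86 and −1.58 on the log2 scale against −0.14, −0.21 and −0.10 over all 861 genes. Pcdh15, a protocadherin, had ratios of −3.04, −2.39 and −2.71. Ptprz1, a receptor phosphatase of precursors, was at 515, 458 and 395 CPM in members, 2055, 2379 and 1596 CPM in precursors and 97.4, 98.1 and 131 CPM in mature nuclei. Cspg5, a proteoglycan, had 3, 0 and 3 UMIs in members against 262, 471 and 87 in precursors. Other genes of the precursor list were not lower. Tnr, the matrix protein tenascin R, was at 4903, 5170 and 2198 CPM in members and 2613, 3336 and 1551 CPM in precursors, while Sox6, a transcription factor that holds back maturation, was at 1409, 1303 and 675 CPM in members and 1246, 1327 and 734 CPM in precursors. Both were low in mature nuclei, where Sox6 was at 17.7, 26.8 and 19.0 CPM.

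**Figure D2:**
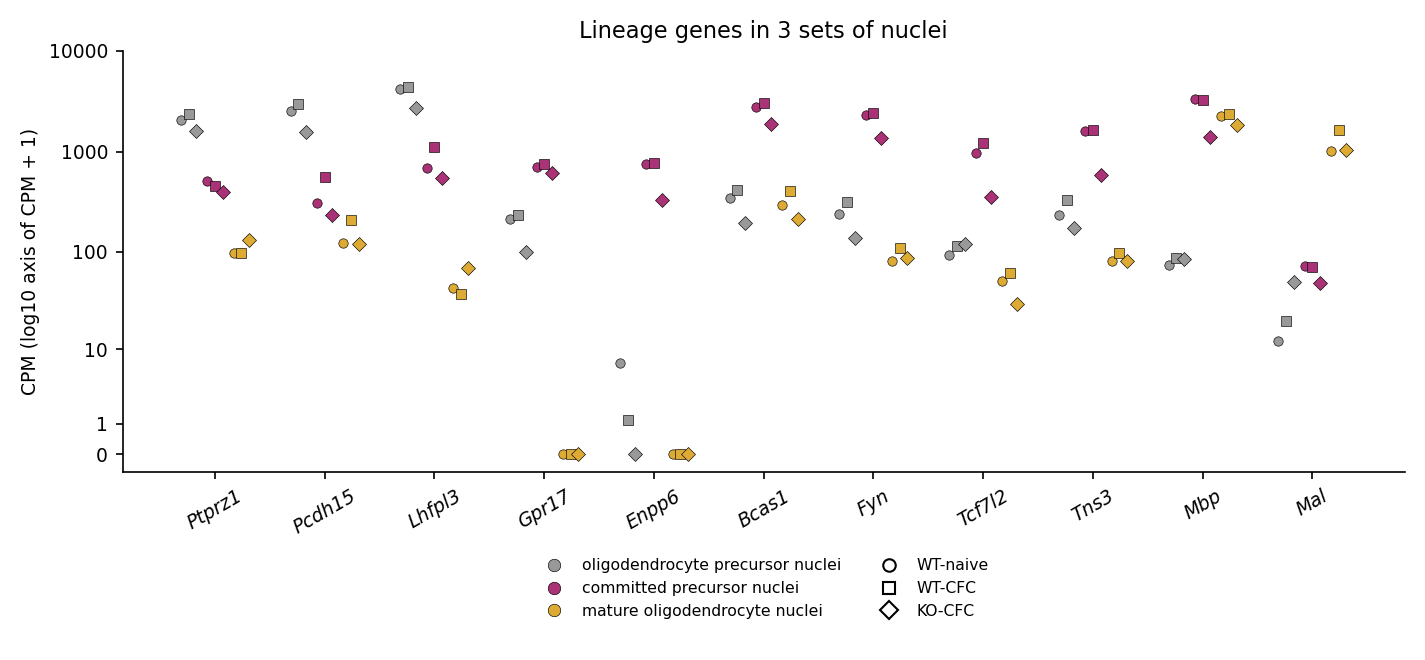
CPM of lineage genes (y axis, log10 axis of CPM + 1) in oligodendrocyte precursor nuclei (grey), committed precursor nuclei (magenta) and mature oligodendrocyte nuclei (yellow); circles are WT-naive, squares WT-CFC and diamonds KO-CFC. Ptprz1, Pcdh15 and Lhfpl3 stepped down from precursors to members, Fyn, Tcf7l2 and Tns3 peaked in members, and Mal was high in mature nuclei and had 9, 7 and 5 UMIs in members. Gpr17 and Enpp6 are at 0 in mature nuclei by the rule.

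A UMI of Mki67 or Top2a, genes of dividing cells, was in 1 of 37, 0 of 26 and 1 of 29 members, against 10 of 182, 9 of 217 and 2 of 68 precursor nuclei. Over the whole list of 26 cell cycle genes, a UMI was in 37.8%, 30.8% and 24.1% of members and in 30.2%, 34.6% and 17.6% of precursors. The list summed to 225 CPM (interval 150 to 326), 81.4 CPM (35.2 to 160) and 125 CPM (66.7 to 214) in members, from 28, 8 and 13 UMIs, and to 248, 285 and 139 CPM in precursors. Members were thus below precursors in WT-CFC, and their intervals held the precursor level in WT-naive and KO-CFC. The receptors for interleukin-3 and related cytokines were at the detection limit. Csf2rb2 had 0, 0 and 1 UMIs in members and Csf2ra 1, 0 and 5, where a count of 0 allows up to 24.2 CPM in WT-naive and 30.5 CPM in WT-CFC. No gene of the lists for BMP, Wnt and Notch signalling, the cell cycle or immediate early genes had 50 counts in any pair of libraries, so no count of genes apart is given for these lists. As sums over members, the 33 BMP, Wnt and Notch genes were at 700.4, 682 and 607 CPM and the 23 immediate early genes at 201, 214 and 376 CPM, with overlapping intervals.

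The members differed widely among themselves. In WT-naive, premyelinating genes held 0.137% of a nucleus's UMIs in the lowest, 1.61% in the median and 2.84% in the highest member. In WT-CFC these values were 0.192%, 1.93% and 3.47%, and in KO-CFC 0.214%, 1.41% and 2.54%. The ranges of the 3 libraries overlapped, while the 25th percentiles were 0.864%, 1.66% and 0.322%. The lowest members of each library were near the precursor level of this list, and by the 25th percentile this reached furthest in KO-CFC. For such members the name of committed precursor was weakly borne out. For the 23 myelin genes outside the rule for mature nuclei, the lowest, median and highest were 0.0871%, 0.784% and 2.46% in WT-naive, 0.0548%, 0.917% and 2.07% in WT-CFC and 0.0460%, 0.552% and 1.85% in KO-CFC. More UMIs of myelin than of precursor genes were held by 8, 9 and 6 members, 23 in all.

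Nuclei rich in premyelinating RNA tended to be rich in myelin RNA. Across nuclei the Spearman correlation of the 2 shares was 0.547 in WT-naive (37 nuclei), 0.641 in WT-CFC (26) and 0.849 in KO-CFC (29). Myelin and precursor shares gave −0.306, −0.579 and −0.0429. The nuclei of a library share 1 preparation and differ in depth, so these are descriptions. In KO-CFC the 3 deepest nuclei were low in both shares, at 0.245% premyelinating and 0.121% myelin RNA, with 0.901% neuron RNA. The part of such nuclei in the correlation was not tested.

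**Figure D3:**
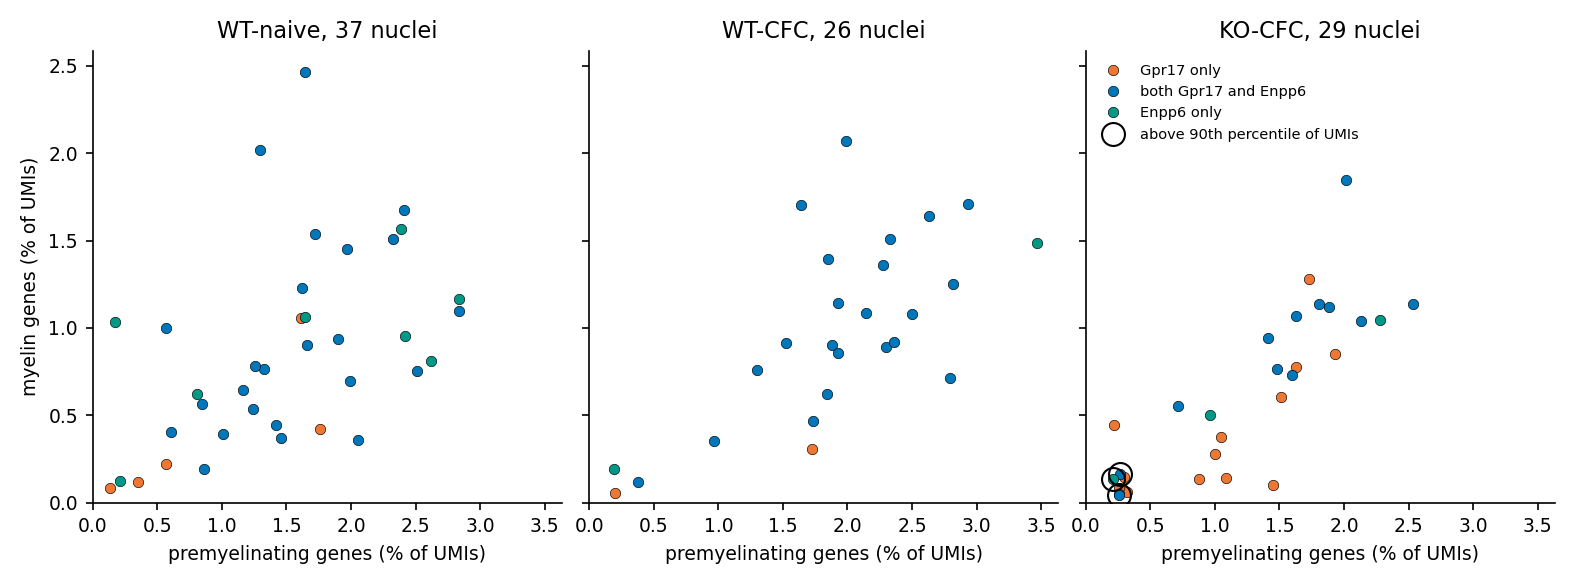
Each point is 1 member, with the share of its UMIs in 25 premyelinating genes (x axis, %) and in 23 myelin genes (y axis, %), in 1 panel per library. Colours give detection of Gpr17 only (orange), both Gpr17 and Enpp6 (blue) or Enpp6 only (green), and open circles mark the 3 KO-CFC members with 10879 to 13719 UMIs, which lie at 0.214 to 0.262% premyelinating RNA.

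The members fell into 3 kinds by the markers Gpr17 and Enpp6. Both were found in 59 nuclei, Gpr17 without Enpp6 in 20, and Enpp6 without Gpr17 in 13. In WT-naive 5 of 37 members had only Gpr17 (13.5%, interval 4.54 to 28.8%), in WT-CFC 2 of 26 (7.69%, 0.946 to 25.1%) and in KO-CFC 13 of 29 (44.8%, 26.4 to 64.3%). The share was highest in KO-CFC and its interval overlapped that of WT-naive. Depth moved with it, since KO-CFC members had the lowest median UMIs. When members of 1000 or more UMIs were thinned to 1000, Enpp6 was found in 62.9% (44.9 to 78.5%), 65.4% (44.3 to 82.8%) and 27.6% (12.7 to 47.2%) of them, and Gpr17 in 54.3%, 46.2% and 55.2%. With the rule applied after thinning, the share with only Gpr17 was 13.6% of 22 members in WT-naive, 31.6% of 19 in WT-CFC and 64.3% of 14 in KO-CFC.

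The nuclei with only Gpr17 had less of several later genes. Summed over the libraries, Tcf7l2 was at 191 CPM in nuclei with only Gpr17, 1057 CPM in those with both and 734 CPM in those with only Enpp6. Cnksr3, a scaffold protein, was at 31.9, 398 and 356 CPM, and Nfasc at 558, 3382 and 3468 CPM. Mbp was at 447, 3405 and 2445 CPM. These 4 genes were lowest in the nuclei with only Gpr17. The precursor gene Lhfpl3 ran the other way, at 1595, 526 and 756 CPM, as did Ptprz1, at 798, 348 and 534 CPM. Fyn did not separate the kinds as far, at 1707, 2233 and 1623 CPM.

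KO-CFC gave 13 of the 20 nuclei with only Gpr17, so these genes are also given within libraries, for nuclei with only Gpr17 and then for nuclei with both. In WT-naive, Tcf7l2 had 3 UMIs (160 CPM) in the 5 nuclei with only Gpr17 and 86 UMIs (1078 CPM) in the 24 with both. In WT-CFC it had 1 UMI (69.8 CPM) in 2 nuclei and 119 UMIs (1482 CPM) in 22. In KO-CFC it had 8 UMIs (270 CPM) in 13 nuclei and 26 UMIs (445 CPM) in 13. The order was the same in each library and the gap was smallest in KO-CFC. Mbp had the same order, at 320 and 4049 CPM in WT-naive, 69.8 and 3897 CPM in WT-CFC and 710 and 1849 CPM in KO-CFC. So did Nfasc, at 320 and 3585, 489 and 4495, and 743 and 1575 CPM, and Cnksr3, with 0 and 38, 1 and 39, and 1 and 10 UMIs. Lhfpl3 was higher in nuclei with only Gpr17 in each library, at 2131 and 464, 1466 and 760, and 1318 and 291 CPM, as was Ptprz1, at 746 and 414, 698 and 398, and 879 and 188 CPM. Fyn was lower in the wild-type libraries, at 1279 and 2620 and at 1884 and 2540 CPM, and higher in KO-CFC, at 1893 and 1284 CPM. The precursor list held a median of 1.18% and 1.60% of UMIs in WT-naive, with 6.11% in 1 nucleus with only Gpr17. In WT-CFC the medians were 2.61% and 1.49%, and in KO-CFC 1.77% and 0.943%. Granule and pyramidal neuron genes also differed, at 11666 and 2758, 6560 and 1469, and 2805 and 6300 CPM. Single nuclei also weighed in the wild-type sums for only Gpr17. In WT-naive 1 nucleus held 8037 of their 18772 UMIs, and in WT-CFC 1 nucleus held 9122 of 14329. Neuron genes held 1.85% and 0.910% of UMIs in these nuclei, and premyelinating genes 0.137% and 0.197%. The part of neuron genes and of these nuclei in the differences was not tested.

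The summed premyelinating list did not keep 1 order across libraries. In WT-naive it was at 5380 CPM in nuclei with only Gpr17, 15832 CPM in those with both and 16912 CPM in the 8 with only Enpp6. In WT-CFC it was at 7537, 20034 and 11074 CPM, the last from 2 nuclei. In KO-CFC it was at 8719, 8817 and 5410 CPM, the last from 3 nuclei, so the first 2 sums were close. Among KO-CFC nuclei with both, those of 13719 and 10879 UMIs held 0.262% and 0.257% premyelinating RNA. Without them the 11 others with both were at 13339 CPM. The median KO-CFC nucleus held 1.05% with only Gpr17 and 1.60% with both, so by these values nuclei with only Gpr17 were lower.

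**Figure D4:**
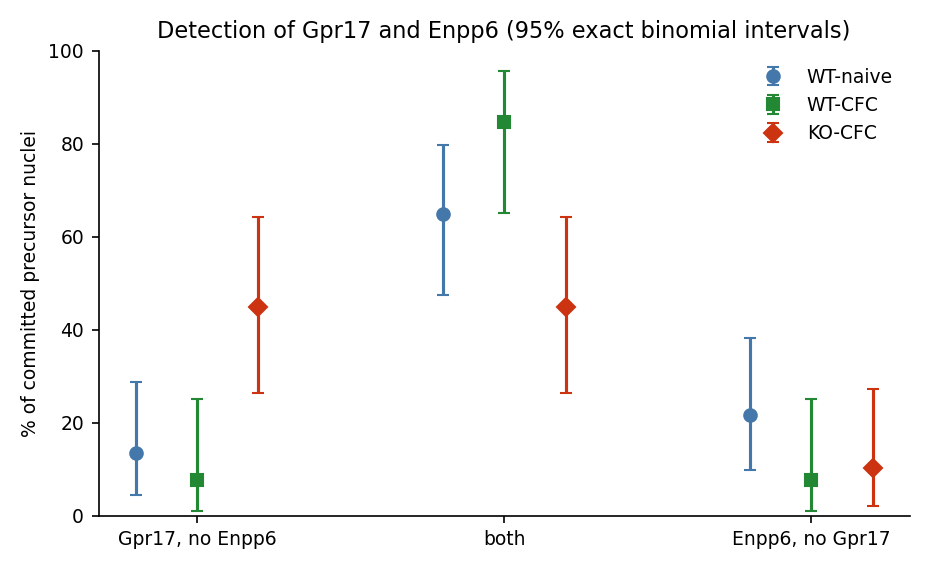
Share of members (y axis, %) with Gpr17 and no Enpp6, with both, and with Enpp6 and no Gpr17 (x axis), with exact 95% binomial intervals; circles are WT-naive, squares WT-CFC and diamonds KO-CFC. Members with Gpr17 alone were 44.8% in KO-CFC and 13.5% and 7.69% in the wild-type libraries.

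The comparison of WT-CFC with WT-naive asks what differs in committed precursors 14 days after fear conditioning. No gene of the lineage lists was 2-fold apart, and the genes that were had other roles. Of 557 genes with at least 50 counts over both, 9 were at least 2-fold higher in WT-CFC (1.62%) and 19 were at least 2-fold lower (3.41%), together 28 genes (5.03%), with a median log2 ratio of 0.01. None of the 13 tested premyelinating genes, the 9 myelin genes, the 14 precursor genes or the 9 lineage transcription factors was 2-fold apart. Their medians were 0.24, 0.19, 0.22 and −0.31.

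Within the premyelinating list 12 of 13 ratios were above 0. Mpzl1, a surface glycoprotein, was at 869 CPM in WT-naive and 1527 CPM in WT-CFC, a log2 ratio of 0.81 (0.45 to 1.18), and the matrix gene Bcan, brevican, had a ratio of 0.70 (0.16 to 1.26). Fyn had a ratio of 0.07 (−0.18 to 0.32), Tns3 0.03 (−0.28 to 0.34) and Tcf7l2 0.35 (−0.03 to 0.73). For these last 3 genes the difference was within counting error.

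The genes that were 2-fold apart all lay outside the lineage lists. Lamp1, a lysosomal membrane protein, had 39 UMIs in WT-CFC and 18 in WT-naive, a ratio of 1.43 (0.61 to 2.35). Dip2b had 57 and 27 UMIs, a ratio of 1.40 (0.73 to 2.13), and the transcription factor Zeb1 had 40 and 20 UMIs, a ratio of 1.32 (0.53 to 2.19). These were spread over 11 to 18 nuclei in each library. Gpc5, which is also an astrocyte gene, had the largest ratio, 1.54 (0.85 to 2.32), but 28 of its 56 UMIs were in 1 nucleus, and among members with at least 4 markers the ratio was −1.67.

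The genes lower in WT-CFC included subunits of glutamate and GABA receptors, 3 of 11 tested, with a list median of −0.28. Without nuclei holding 2 or more immune or vascular UMIs the median was 0.29, with 1 of 6 tested genes lower, and in members with both Gpr17 and Enpp6 it was 0.02, with 0 of 5 lower. Grin2b, an NMDA receptor subunit, had 16 UMIs against 53, a ratio of −1.36 (−2.30 to −0.56), while over all kept barcodes its ratio was 0.04. Grm5, a metabotropic glutamate receptor, had 32 against 83, a ratio of −1.02 (−1.67 to −0.43), and Gabrb1, a GABA receptor subunit, 15 against 39, a ratio of −1.01 (−2.01 to −0.15). Cntnap2, an axonal contact protein, had 10 against 57 UMIs, a ratio of −2.12 (−3.31 to −1.19), with 34 of the 57 in 1 nucleus. Genes of granule and pyramidal neurons moved with these, as their list summed to 4098 CPM in WT-naive, 2320 CPM in WT-CFC and 5332 CPM in KO-CFC, from 0 to 1.85%, 0.910% and 1.02% of a member's UMIs. That list shares the subunit Grin2a with the receptor list. All 14 genes of the neuron list but Trpc6, at 0 in WT-naive, had a UMI in members. Of its defining genes Prox1, of granule neurons, had 11, 3 and 2 UMIs and Rbfox3, of most neurons, 17, 5 and 13, and their part in the receptor genes was not tested.

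The comparisons of KO-CFC with the other libraries ask what differs in members when the mice carry the labelled knockout. Summed over members, premyelinating and myelin RNA was lower in the library labelled KO-CFC. That sum includes members whose premyelinating share was near that of precursors. In KO-CFC the 25th percentile of this share was 0.322% of UMIs, against a median of 1.41%. Of 495 genes tested against WT-CFC, 80 were at least 2-fold higher (16.2%) and 95 were at least 2-fold lower (19.2%), together 175 (35.4%). Of 597 tested against WT-naive, 59 were higher (9.88%) and 91 lower (15.2%), together 150 (25.1%). The median ratio of all genes was −0.25 and −0.26, and with ratios centred on it the counts became 98 higher and 49 lower, and 88 higher and 50 lower. Both comparisons use the same KO-CFC nuclei.

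In the premyelinating list, 8 of 13 tested genes were at least 2-fold lower than in WT-CFC and none was higher, with a median of −1.15. Against WT-naive 6 of 13 were lower and none was higher, with a median of −0.77. Mpzl1 was at 869, 1527 and 415 CPM in that order of libraries, giving −1.87 (−2.40 to −1.38) against WT-CFC and −1.06 (−1.61 to −0.55) against WT-naive. Tcf7l2 gave −1.76 (−2.35 to −1.23) and −1.41 (−1.999 to −0.88), and Tns3 −1.46 (−1.92 to −1.04) and −1.43 (−1.88 to −1.02). These 3 genes were 2-fold lower than in either wild-type library. Cnksr3 and Chn2, a regulator of Rac GTPases, were at −1.46 and −1.34 against WT-CFC, and Ust, an enzyme that sulfates matrix sugars, at −1.15. Fyn was at −0.84 (−1.15 to −0.53) and −0.77 (−1.07 to −0.47), and Sirt2 at −0.25 (−0.76 to 0.26) and −0.42 (−0.90 to 0.05), so neither was 2-fold apart.

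In the myelin list 4 of 6 tested genes were at least 2-fold lower than in WT-CFC, with a median of −1.20, and 3 of 7 were lower than in WT-naive, with a median of −0.98. Enpp2, the enzyme autotaxin, had 60, 54 and 15 UMIs, giving −1.89 (−2.86 to −1.08) against WT-CFC and −1.70 (−2.66 to −0.91) against WT-naive. Mbp gave −1.24 (−1.53 to −0.95) and −1.27 (−1.55 to −0.99). In mature nuclei Mbp gave −0.36 and −0.30, and in precursors 0.00 and 0.23.

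Precursor genes had medians nearer 0 than the premyelinating and myelin lists. Of 12 tested precursor genes 5 were at least 2-fold lower than in WT-CFC, with a median of −0.85, and of 13 tested against WT-naive 2 were, Tnr at −1.16 and Sox6 at −1.06, with a median of −0.39. Of the transcription factors, Tcf7l2 and St18 (−1.25) were lower than in WT-CFC, 2 of 7 tested, with a median of −0.60. Against WT-naive 4 of 9 were lower, with a median of −0.95, close to that of the myelin list. Sox10, which keeps the lineage's identity, was at 507, 407 and 357 CPM, with ratios of −0.19 (−0.88 to 0.49) and −0.50 (−1.13 to 0.10). Sox8 was at 137, 163 and 299 CPM.

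Among adhesion and axon-contact genes, 4 of 24 were lower than in WT-CFC, a smaller share than the 19.2% of all genes tested, and 6 were higher, a larger share than the 16.2% of all genes. The median was −0.18. The lower ones were Sema4d, a semaphorin, at −2.09 (−3.09 to −1.27), Cntn1, contactin 1, at −1.95 (−2.64 to −1.34), the ephrin receptor Ephb1 at −1.85 (−2.86 to −1.01) and Nfasc at −1.48 (−1.77 to −1.20). All 4 were also at least 2-fold lower than in WT-naive. The higher ones were Cntnap2 at 2.38, the netrin receptor Dcc at 1.96, the neuregulin Nrg3 at 1.68, Lingo2 at 1.21, the teneurin Tenm4 at 1.20 and the Slit receptor Robo2 just past 2-fold. Single nuclei held much of these, 30 of the 57 UMIs of Cntnap2, 54 of the 104 of Dcc and 127 of the 294 of Robo2. Outside the list, Frmd4a was at −1.67 (−1.86 to −1.49) and −1.34 (−1.52 to −1.15).

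A group of 3 KO-CFC members weighs heavily in these sums. They hold 10879, 11692 and 13719 UMIs, above the 90th percentile of their library (10063 UMIs), and 35.0% of all member UMIs there. No wild-type member passed that percentile of its own library, which was higher, at 13231.5 UMIs in WT-naive and 13402.8 in WT-CFC. Leaving out nuclei above it thus removed KO-CFC nuclei only. In the 3 KO-CFC nuclei premyelinating genes held 0.245% of UMIs, against 1.14% in the other 26 KO-CFC members, and neuron genes held 0.901% against 0.335%. Wild-type members of a like profile stayed in. A WT-naive nucleus of 8037 UMIs held 0.137% premyelinating and 1.85% neuron RNA, and a WT-CFC nucleus of 9122 UMIs held 0.197% and 0.910%. Without the 3 KO-CFC nuclei, 4 of 13 premyelinating genes were at least 2-fold lower than in WT-CFC, with a median of −0.66. Against WT-naive 2 of 13 were lower, with a median of −0.32. Of all genes tested, 42 of 371 and 60 of 455 were then lower, with medians of −0.30 and −0.32. Mpzl1 was then at −1.35, Tcf7l2 at −1.22 and Fyn at −0.39 against WT-CFC. Among myelin genes 2 of 5 were lower than in WT-CFC, with a median of −0.71, and 1 of 7 was lower than in WT-naive, with a median of −0.65. No precursor gene was then 2-fold lower, 0 of 12 against WT-CFC with a median of −0.56 and 0 of 13 against WT-naive with a median of −0.14. The transcription factor medians were −0.44 and −0.48. Of the adhesion genes 3 of 21 were lower than in WT-CFC and 0 higher. With every nucleus weighted equally the premyelinating medians were −0.71 and −0.32.

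RNA of other cells also moved with the KO-CFC values. At least 2 UMIs of microglia, lymphocyte, endothelial, mural or choroid plexus markers were in 19 of 29 KO-CFC members, against 5 of 37 and 5 of 26, and a lymphocyte UMI was in 18, 1 and 1. These 19 included the 3 large nuclei and 9 of the 13 with only Gpr17. In the other 10 KO-CFC members premyelinating genes held 1.73% of UMIs, against 1.64% in the 32 WT-naive and 1.92% in the 21 WT-CFC members chosen the same way. Among those nuclei 1 of 12 premyelinating genes was at least 2-fold lower than in WT-CFC (median −0.25). Against WT-naive 0 of 12 was lower (median 0.01), and the myelin medians were −0.15 and 0.21. Of all genes tested in those nuclei, 24 of 179 and 31 of 243 were lower, with medians of −0.34 and −0.24. Precursor genes stayed lower than in WT-CFC, 3 of 8 with a median of −0.78. Other choices of nuclei gave other values. Without members holding a lymphocyte UMI, which left 11 in KO-CFC, 4 of 12 premyelinating genes were lower than in WT-CFC (median −0.78). Against WT-naive 1 of 13 was lower (median −0.55). Of all genes tested there, 53 of 263 and 57 of 342 were lower, with medians of −0.37 and −0.30. Among members with both Gpr17 and Enpp6, 8 of 12 premyelinating genes were lower than in WT-CFC (median −1.14) and 5 of 12 lower than in WT-naive (median −0.82). Of all genes tested in that set, 87 of 273 and 80 of 283 were lower, with medians of −0.71 and −0.57. When the large nuclei were left out of that set, 3 of 12 and 0 of 12 premyelinating genes were lower, with medians of −0.49 and −0.25. Those medians were close to the −0.43 and −0.38 of all genes, of which 29 of 222 and 29 of 229 were lower. In the 10 nuclei with fewer than 2 immune or vascular UMIs, Mbp was at 3395 CPM and Fyn at 3145 CPM, levels no lower than those of the wild-type members. These 10 nuclei held 1320 to 2924 UMIs and 20029 in all, so the limit on UMIs of other cells also kept the shallower nuclei.

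**Figure D5:**
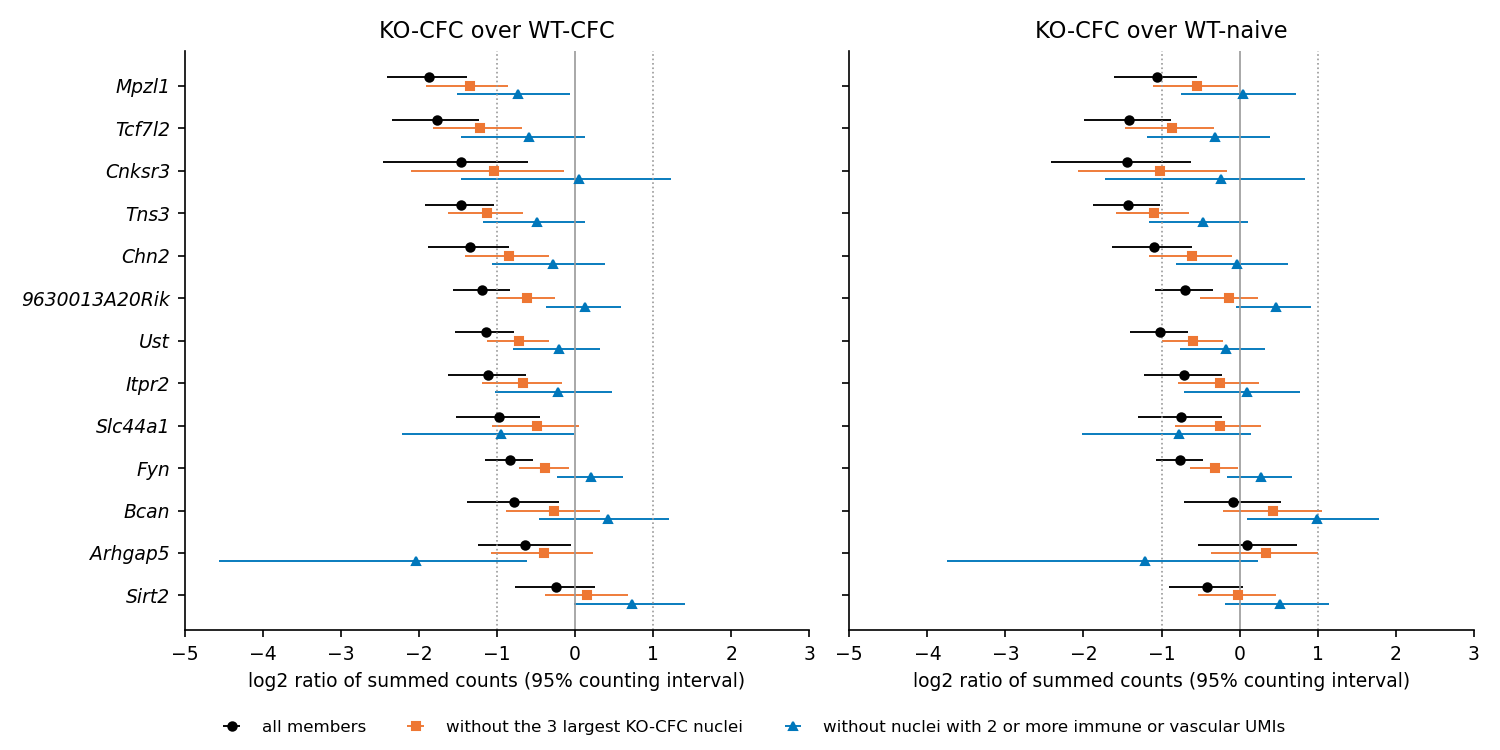
Log2 ratio of summed counts (x axis) for the 13 premyelinating genes with at least 50 counts in KO-CFC and WT-CFC members together (y axis), KO-CFC over WT-CFC on the left and over WT-naive on the right, with 95% counting intervals. Black circles are all members, orange squares leave out the 3 largest KO-CFC nuclei and blue triangles leave out nuclei with at least 2 immune or vascular UMIs in every library. The medians against WT-CFC were −1.15, −0.66 and −0.25 in that order, beside −0.25, −0.30 and −0.34 over all genes tested. Dotted lines mark 2-fold.

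Some genes were higher in KO-CFC members. In the list of interferon response and MHC class I genes, members summed to 153, 275 and 3095 CPM in WT-naive, WT-CFC and KO-CFC. H2-K1, an MHC class I chain, had 1, 4 and 55 UMIs, a ratio to WT-CFC of 3.55 (2.27 to 5.63), and H2-D1 had 1, 5 and 46 UMIs, a ratio of 3.002 (1.80 to 4.81). In KO-CFC 6 of the 29 members held 282 of the 321 UMIs of this list, 1 nucleus held 187, and the other members summed to 633 CPM. The list was higher throughout that library, at 734 CPM over all kept barcodes against 80.7 and 103 CPM, and at 2296 CPM in its mature oligodendrocytes.

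Further genes higher in KO-CFC members were also higher over the whole library. Cst3, cystatin C, had 30, 36 and 182 UMIs, a ratio to WT-CFC of 2.24 (1.74 to 2.82), against 1.13 over all kept barcodes. Apoe, a lipid carrier of astrocytes, had a ratio of 1.64 (1.14 to 2.19) against 1.40, and Fth1, a ferritin chain, 1.37 (0.89 to 1.89) against 1.21. Mt1, metallothionein 1, had 3, 5 and 53 UMIs, a ratio of 3.20 (2.02 to 5.01) against 1.75. Among the 10 KO-CFC members with fewer than 2 immune or vascular UMIs, Cst3 was at 849 CPM and Apoe at 399 CPM. Markers of microglia moved with these genes, while the sum of astrocyte markers holds Apoe itself. The 12 astrocyte markers, Apoe among them, summed to 781, 1333 and 1900 CPM, with Gjb6 at 0 throughout and Gja1 at 0, 3 and 0 UMIs. Apoe alone made up 314, 417 and 1311 CPM of these sums. Of the 2 astrocyte genes tested against WT-CFC, 1 was at least 2-fold higher and 1 was lower, at −2.99. The 12 microglia markers summed to 105, 397 and 1032 CPM, with C1qa at 1, 0 and 17 UMIs. Their part in the result was not tested. Glutamate and GABA receptor subunits were higher in 6 of 13 tested genes and lower in 1, but without the 3 large nuclei their median was −0.16. Neuron genes moved with them, 4 of 5 tested being at least 2-fold higher than in WT-CFC with a median of 1.43, and 0.61 without the 3 large nuclei. Both lists hold Grin2a, so they share some of the same counts.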

How the data were processed

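Raw counts of UMIs per gene and barcode were used for all 5 libraries as the authors deposited them. The matrices come from Cell Ranger 8.0.1, per the file headers. Seurat 5.4.0 and the build GRCm39 are named too, per the submitters' processing notes. Counts are of 3′ ends, so gene length does not enter. The members, the 25 gene lists (501 genes) and the comparisons were chosen with earlier results of these data known, and the views without nuclei that carry lymphocyte UMIs or with both markers were added after seeing the data.

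Barcodes of nuclei needed 500 UMIs and at most 5% mitochondrial UMIs. Counts of the chosen nuclei were summed within each library and scaled to their total (CPM). Log2 ratios used 0.5 added to each sum, genes with at least 50 counts over both sums, and exact conditional 95% intervals, and genes at least 2-fold apart were counted. Shares have exact Clopper-Pearson intervals and CPM exact Poisson limits. A count of 0 is read as fewer than 3 counts. Thinning drew 1000 UMIs per barcode (seed 1). No doublet caller was run, and the limits on neuron and astrocyte UMIs in the rule and the leave-out of large nuclei bear on doublets only in part. Genes are named by list membership together with a 2-fold difference, or as the up to 10 highest and 10 lowest between libraries (12 between cell sets) by the interval bound nearest 0; Xist, Y-linked and immunoglobulin genes were chosen after their values were seen. The summing and ratio steps were tested on simulated data. The members' depth was 124210, 98256 and 103710 UMIs (WT-naive, WT-CFC and KO-CFC). Analyses used Python 3.11.15, numpy 2.4.6, scipy 1.17.1 and pandas 2.3.3, with matplotlib 3.10.9 for figures. No sequence is shown, because the values are 3′ counts per gene. A few genes that these rules would name are not reported here, and they remain in the counts and medians of lists.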

Additional observations from a re-analysis of the deposited data

How the results depend on the processing

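No paired analysis was possible because each group had 1 library. Of 42 shares and splits 29 stayed within their counting interval, and of 112 gene counts 62 stayed within 1.5 times. Of 342 list medians between libraries, 312 stayed within an interval drawn from the ranked ratios of the list's genes. Of 289 ratios between cell sets, 211 stayed within the range of the 3 libraries, and 0 of those 289 turned direction. Alternative ratios of named genes between libraries were computed only where the 2 sums together hold at least 20 counts, a minimum set after seeing the data: 25 of 1236 then turned direction, and with a minimum of 1 count 58 of 1342 did. At least 1000 UMIs raised the WT-CFC share to 0.313%. Requiring 4 markers gave shares of 0.195%, 0.122% and 0.167% (WT-naive, WT-CFC, KO-CFC), nuclei with only Gpr17 at 0% in WT-CFC and 21.4% in KO-CFC, 5 genes higher in WT-CFC than in WT-naive, 28 higher in KO-CFC than in WT-CFC, 29 higher and 60 lower in KO-CFC than in WT-naive, and Gpc5 at −1.67. With 2 markers the shares were 0.576%, 0.406% and 0.561%, 33 genes were higher and 66 lower in WT-CFC than in WT-naive, 104 were lower than in mature nuclei, and Grm7 (−0.0464), Kcnip4 (−0.00579) and Lingo2 (−0.36) against WT-CFC and Gria1 (−0.26), Grik4 (−0.30) and Grin2a (−0.17) against WT-naive turned. With 0 UMIs of Slc17a7, Gad2 and Aqp4 the WT-naive share was 0.242%, 8 genes were lower in WT-CFC than in WT-naive and 37 higher in KO-CFC than in WT-CFC. After thinning, the share with only Gpr17 in WT-CFC was 31.6%, the KO-CFC share 0.206%, and the higher and lower counts 1 and 4 (WT-CFC against WT-naive), 0 and 5 (KO-CFC against WT-CFC) and 0 and 7 (KO-CFC against WT-naive), with Lhfpl3 at 0.53 against WT-CFC; far fewer counts remained. Without barcodes above the 90th percentile the counts were 23 and 42 against WT-CFC and 24 and 60 against WT-naive, and Gabrb1 (−0.16), Grm5 (−0.12), Kcnq5 (−1.32), Lingo2 (−0.37), Meg3 (−0.0377) and Robo2 (−0.57) turned. Without members with 2 or more immune or vascular UMIs the KO-CFC share was 0.119%, the counts 5 and 24 and 9 and 31, those against precursors 11 and 31 and against mature nuclei 38 and 101, and Apoe (−0.34), Cnksr3 (0.0544), Kcnq5 (−0.68), Mag (0.25), Mbp (0.0164), Meg3 (−0.0839), Prkg1 (−0.45) and Robo2 (−2.26) against WT-CFC and Dcc (−0.91), Mpzl1 (0.0472) and St18 (0.12) against WT-naive turned. Centred ratios gave 49 and 50 lower genes in KO-CFC (against WT-CFC and WT-naive) and equal weights 53 and 51. A minimum of 20 counts gave 88 higher and 117 lower, 272 and 247, and 224 and 248 in the 3 comparisons, and of 100 counts 1 and 7, 19 and 47, and 11 and 47. With both markers required, 2, 27 and 33 genes were higher. Without members with a lymphocyte UMI the KO-CFC counts were 18 and 53 and 21 and 57. The cause was not tested, beyond the smaller number of nuclei and counts that several of these settings leave.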

Other observations

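The 2 libraries of dissociated cells, taken 14 days after fear conditioning (CFC-14d) or after random foot shocks (Random-14d), held too few barcodes of this kind to compare. With at most 20% mitochondrial UMIs, 9 of 32491 barcodes met the marker rule in CFC-14d (0.0277%, exact Clopper-Pearson interval 0.0127 to 0.0526%) and 6 of 30407 in Random-14d (0.0197%, 0.00724 to 0.0429%). In CFC-14d these barcodes held no UMI of Gpr17, Neu4 or Fyn. Of the rule's markers they held 13 UMIs of Enpp6, 12 of Bmp4 and 20 of Bcas1. Of Itpr2, Tns3 and Tcf7l2, outside the rule, they held 5, 4 and 1, so the label of committed precursor was weakly borne out there. In Random-14d they held 5 UMIs of Gpr17, 27 of Enpp6, 23 of Fyn and 21 of Tcf7l2.

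Genes of cholesterol and fatty acid synthesis, the lipid supply of myelin, were present in most members. Their 39 genes summed to 2158 CPM in WT-naive, 2422 CPM in WT-CFC and 1350 CPM in KO-CFC, with a UMI in 36 of 37, 26 of 26 and 29 of 29 members. At most 2 of the 39 had 50 counts in any pair of libraries, so no count of genes apart is given.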
